A study of Homo sapiens with 6 samples.

Results

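The delta-type protocadherins PCDH1, PCDH7, PCDH8, PCDH9, PCDH10, PCDH17 and PCDH18 were described in xenograft tumors of mice given PBS or epinephrine. The 7 members were taken by gene symbol from the 18132 genes measured, and 27 probesets read them. Each gene was read from its probeset of highest mean, taken over all 6 arrays, so measured levels entered the choice of probeset. The family was also put together around PCDH7 when earlier results of these arrays were known. The comparison of treatments is therefore given for the members as a description, and nothing rests on its p-values.

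Protocadherins are cell-surface proteins of the cadherin superfamily with a row of extracellular cadherin repeats, 1 membrane span and a cytoplasmic tail that does not bind catenins as classical cadherins do. The delta type stands apart from the clustered protocadherins, because its genes lie singly in the genome, and it is split by its tail and repeats into delta-1 (PCDH1, PCDH7 and PCDH9 here) and delta-2 (PCDH8, PCDH10, PCDH17 and PCDH18). They are best known from the developing nervous system. In breast cancer PCDH7 has been linked to growth of metastases in brain and bone, and PCDH10 and PCDH17 are often silenced by promoter methylation in carcinomas.

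The tumors arose from cells of the human triple-negative breast cancer line MDA-MB-231, placed under the skin of both flanks of NOD/SCID mice aged 4 to 6 weeks, a strain without working T and B cells. Mice of the Epi group received epinephrine under the skin at 2 mg/kg/d from 7 days before the cells, and mice of the PBS group received an equal volume of PBS. RNA of primary cells from the tumors was read on Affymetrix Human PrimeView arrays, 3 per group, and the values are log2 intensities that the authors had normalized with RMA. The sources do not say how many mice the tumors of a group came from, so the p-values measure only the spread between these samples, and the label code of Epi replicate 2 carries another number than those of Epi replicates 1 and 3, without an explanation.

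Both replicate 1 arrays stood apart from the others before any comparison of treatments. Their median log2 value over all probesets was 5.98 in PBS and 6.05 in Epi, against 6.37 to 6.42 in the other 4 arrays. Values of different replicate numbers are therefore not fully on a common scale. Over all genes the Pearson correlation of the replicate 1 arrays with the other arrays was 0.935 to 0.962, against 0.972 to 0.989 among the other 4. At 5 decimals, 135 to 325 of 49395 probesets held equal values in each pair of those 4 arrays and 46 in the pair of replicate 1 arrays, but at most 1 in a pair that joins a replicate 1 array with another. The members' results are therefore given with and without a block for the replicate number. Of the marker genes expected in MDA-MB-231 cells, VIM stood at a mean log2 value of 14.13 in PBS and 13.83 in Epi tumors, and PGR, listed as low, at 3.34 and 3.33. KRT19, also listed as low, stood at 11.32 and 10.54, and ESR1, ERBB2 and GATA3 also lay above the level that marks dim genes here. None of 36 measured marker genes, of this line and of endothelium, fibroblasts, leukocytes and nerve, passed an adjusted p of 0.05 in either fit. Of all genes, 0% passed without the block and 0.673% with it, so this count does not show whether the make-up of the tumors changed. The arrays were made for human genes and the host was mouse, so markers of host cells are of limited use here.

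On the probeset used, PCDH7 was higher in Epi tumors. It was the only one of the 7 genes with groups that did not overlap, against 0.982% of all genes in this direction. That probeset had the highest mean only through its Epi values, and the PCDH7 probeset chosen by PBS arrays alone differed by 0.06, with overlap. The PCDH7 protein, first described in brain and heart, can bind the phosphatase PP1 and the PP2A inhibitor SET through its tail. On the probeset used, replicates 1 to 3 of the PBS tumors read log2 values of 4.04, 4.24 and 4.24, and those of the Epi tumors 5.24, 6.04 and 6.70. All 3 PBS arrays lay close together, with the identical deposited value in replicates 2 and 3, and each of the Epi arrays was above them. The group means were 4.17 ± 0.12 (SD, n = 3 arrays) and 5.99 ± 0.73 (SD, n = 3), a difference of 1.82 on the log2 scale, or 3.53-fold. The Epi arrays thus spread more widely than the PBS arrays.

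**Figure D1:**
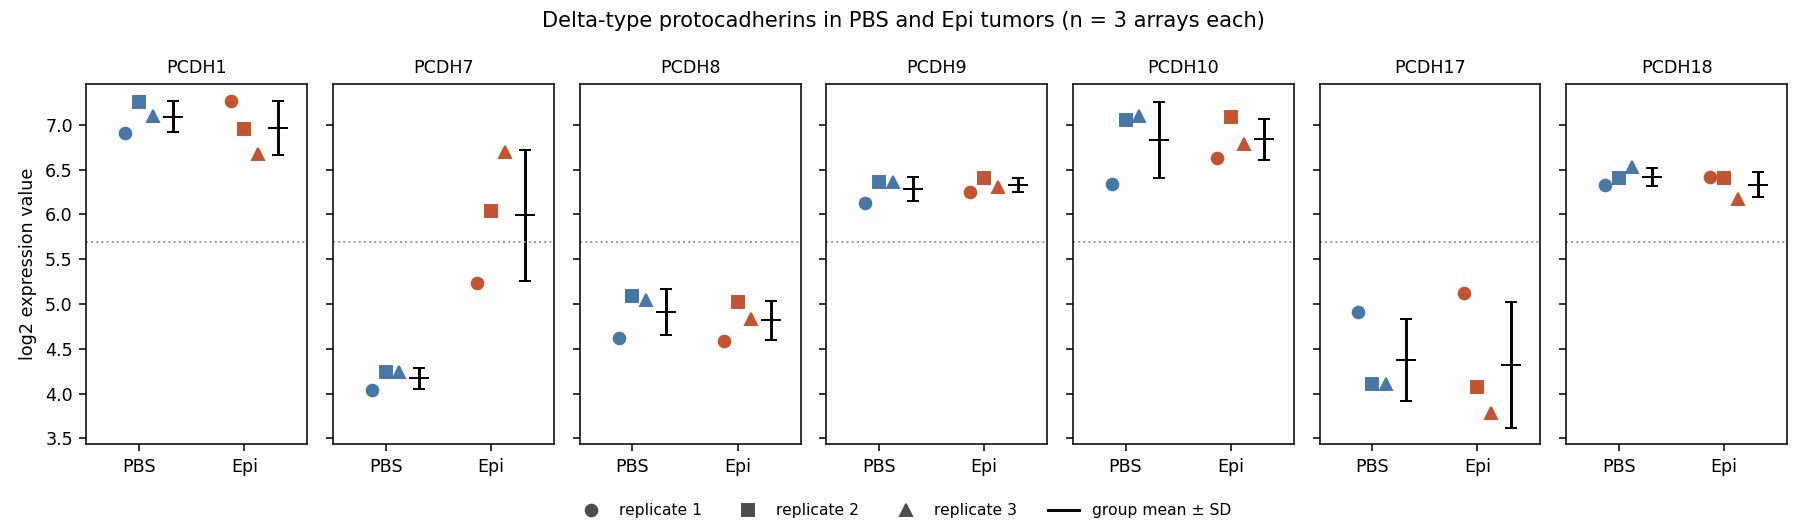
Log2 expression values of the 7 delta-type protocadherins, 1 panel per gene, in 3 PBS and 3 Epi tumors, with a symbol for each replicate number, the group mean ± SD beside the points and a dotted line at 5.69, the level under which genes were called dim. The PCDH7 points of the Epi tumors lie at 5.24 to 6.70, above PBS points at 4.04 to 4.24, and the points of both groups overlap in the other 6 panels.

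Paired by replicate number, PCDH7 differed by 1.20, 1.80 and 2.46 for numbers 1, 2 and 3. With limma without the block its standard error was 0.36 and the adjusted p was 1.00, at an unadjusted p of 8.7e-04 that ranked 7 among 18132 genes. No gene passed in that fit (0% of genes, and 1.33% at an unadjusted p under 0.05). With the replicate number as a block the standard error was 0.24 and the adjusted p from limma was 0.00143, where 122 genes, 0.673% of all, passed in either direction. In limma the variance of each gene is drawn toward that of all genes, and with the block the other members had standard errors of 0.20 to 0.22. The lower standard error of PCDH7 is therefore not a measure of its own spread alone. With a block for the replicate 1 arrays alone, an alternative added after the data were seen, the adjusted p from limma was 0.0151. Without both replicate 1 arrays, which left 2 arrays per group, the difference was 2.13 (adjusted p = 0.0483 from limma without the block). The arrays left out held the lowest PCDH7 value of each group, 4.04 in PBS and 5.24 in Epi tumors. Groups apart in this direction were found in 0.982% of genes, and a difference above 0 within all 3 numbers in 5.71%. In bulk samples, a change in the share of cells that express a gene and a change in its RNA per cell cannot be told apart.

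The probesets of PCDH7 did not move alike. The gene was read by 5 probesets, all of them with a mean under 5.69, the 30th percentile of gene means, under which genes were called dim. The probeset used, 11737384_at, is annotated to the RefSeq transcript NM_002589.2. The probeset 11724983_at, annotated to another PCDH7 transcript, NM_032457.2, read 3.36, 3.88 and 3.42 in the PBS tumors and 4.21, 4.16 and 5.18 in the Epi tumors. Its groups did not overlap either, and its difference was 0.96. The probeset 11741722_at read 3.16, 2.98 and 2.92 in PBS and 3.40, 3.35 and 3.51 in Epi tumors, again without overlap. As these values, and the PBS and Epi replicate 1 values of 11737384_at, lay under the dim level, the sizes of the differences are uncertain. Of all 44988 probesets, 0.965% had groups apart in this direction and 1.69% in the opposite one.

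The remaining probesets of PCDH7 overlapped between groups. The probeset 11724982_s_at read 3.74, 3.93 and 4.23 in PBS and 4.19, 4.19 and 4.42 in Epi tumors, a difference of 0.30. The probeset 11724981_at read 4.68, 4.89 and 4.97 in PBS and 4.89, 5.01 and 4.81 in Epi tumors, a difference of 0.06. This last one had the highest mean of the PCDH7 probesets over the PBS arrays, so 11737384_at was the highest over all 6 arrays only through its Epi values. With the probeset chosen by PBS arrays alone, PCDH7 was at 0.06 and did not pass in either fit (adjusted p = 1.00 from limma, with and without the block). That choice changed the probeset of no other member.

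**Figure D2:**
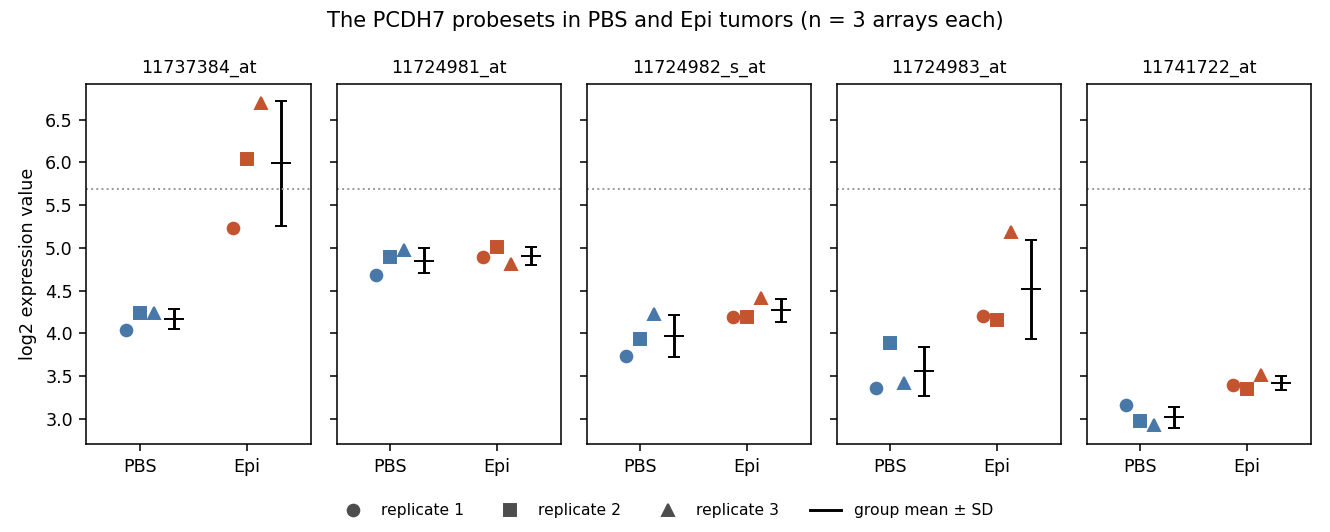
Log2 expression values of the 5 PCDH7 probesets in 3 PBS and 3 Epi tumors, ordered by mean over all arrays from left to right, with a symbol for each replicate number, group means ± SD and the dotted line for dim genes at 5.69. The groups are apart in 11737384_at, 11724983_at and 11741722_at and overlap in 11724981_at and 11724982_s_at.

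The mean of the 5 probesets differed by 0.71 (adjusted p = 1.00 from limma without the block and 0.167 with it). When all 44988 probesets were tested on their own, the adjusted p of 11737384_at was 0.0511 from limma with the block, where 0.0667% of probesets passed. The direction was up within all 3 replicate numbers in 4 of the 5 probesets, and 11724981_at was mixed.

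**Figure D3:**
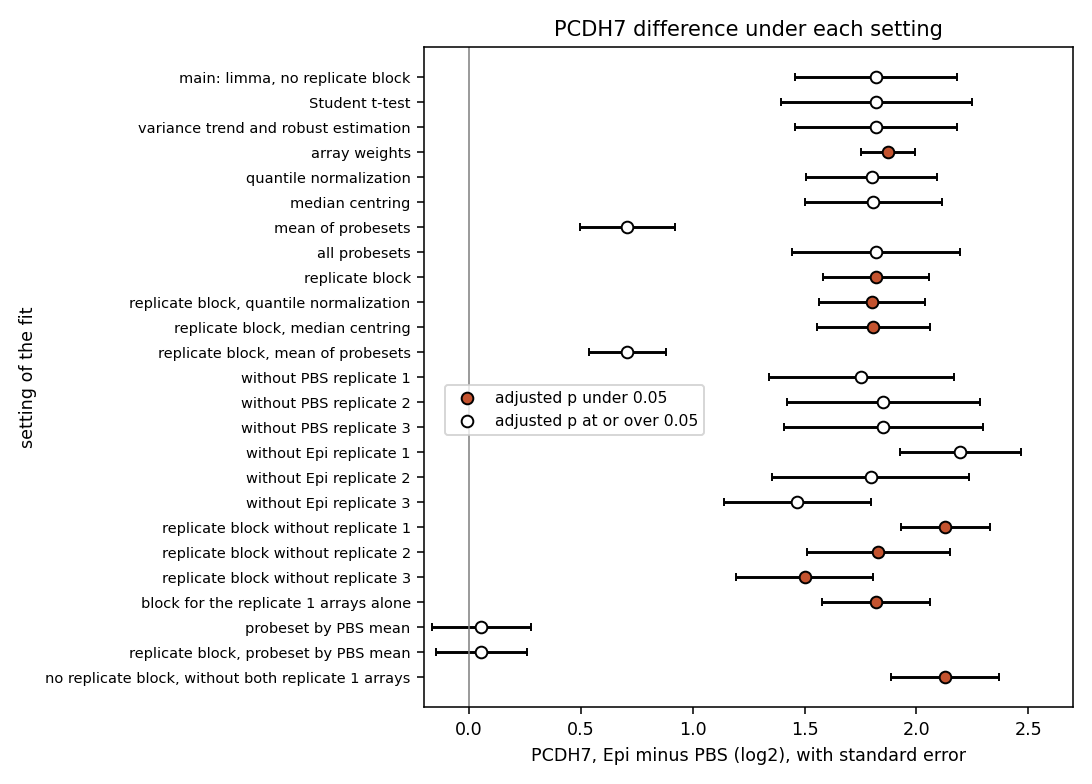
Difference of PCDH7 between Epi and PBS tumors on the log2 scale under each setting of the fit, with its standard error, filled where the adjusted p was under 0.05. The values run from 0.06 with the probeset chosen by PBS arrays to 2.20 without Epi replicate 1. Filled points are those with a block on the used probeset, without both replicate 1 arrays and with array weights, whose estimation did not converge.

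The sequence before the PCDH7 gene is shown because PCDH7 is the member whose groups parted on the probeset used. The 250 bases before its RefSeq start, at chr4:30720119-30720368 on the plus strand of GRCh38.p14, hold an unbroken run of A and G, printed in capitals.
PCDH7: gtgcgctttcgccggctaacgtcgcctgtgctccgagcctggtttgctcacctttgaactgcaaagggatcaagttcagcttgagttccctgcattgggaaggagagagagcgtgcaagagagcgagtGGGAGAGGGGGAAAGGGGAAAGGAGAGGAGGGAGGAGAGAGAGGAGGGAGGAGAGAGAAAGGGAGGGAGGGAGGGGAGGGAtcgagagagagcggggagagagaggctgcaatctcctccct

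The run was 81 bases long, from base 129 to base 209 of the window. A run of A and G or of C and T at least this long was in 0.0256% of the 35116 RefSeq promoter windows, in which the median of the longest such run was 11 bases. In the other members listed there, PCDH1, PCDH8, PCDH9, PCDH17 and PCDH18, the longest run was 24, 18, 13, 18 and 18 bases. Motifs were searched on both strands of the same windows. The cAMP response element TGACGTCA was in none of the 6 member windows and in 1.65% of all windows. Its half-site TGACG, which lies within the full element, was found once before PCDH1 and was in 21.2% of all windows. The E-box CACGTG, which MYC with MAX can bind, was in none of the 6 and in 6.34% of all, and the AP-1 motif TGANTCA in none of the 6 and in 6.57%. The GC box GGGCGG was found 2 times each before PCDH1 and PCDH9 and in 42.6% of all windows. These are matches of letters only.

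None of the other members passed in limma with or without the block, where 0.673% and 0% of all genes passed. On the used probesets their differences, -0.12 to 0.04, were each smaller in size than the SD of either group. The 6 genes had 22 probesets, with differences from -0.32 to 0.60 on the log2 scale, and 17 of the 22 had a mean under 5.69. Of the 7 members, PCDH1, PCDH9, PCDH10 and PCDH18 had a used probeset at or above that level, and PCDH7, PCDH8 and PCDH17 did not.

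Among the delta-1 members, PCDH1 is an adhesion protein of the airway epithelium and other epithelia. It read 6.91, 7.26 and 7.10 in the PBS tumors and 7.27, 6.96 and 6.67 in the Epi tumors. The groups overlapped and the difference of -0.12 had a 95% interval in limma of -0.70 to 0.45 without the block and -0.58 to 0.34 with it. Its difference was 0.36 within replicate 1, -0.30 within replicate 2 and -0.43 within replicate 3, and its 3 other probesets were likewise above 0 in replicate 1 and below 0 in replicates 2 and 3. Their differences over all arrays were -0.09, -0.21 and -0.32. The suffix of the used PCDH1 probeset, 11749106_x_at, marks sets with probes that may also match other sequences.

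PCDH9 is expressed mainly in brain. Its log2 value was 6.13, 6.37 and 6.37 in PBS and 6.26, 6.41 and 6.31 in Epi tumors. The difference was 0.04 (95% interval in limma of -0.47 to 0.54 without the block and -0.39 to 0.46 with it). Its dimmer probeset 11759895_at read 5.07, 4.19 and 4.88 in PBS and 5.09, 5.76 and 5.11 in Epi tumors. It was the only one of the 22 probesets with groups that did not overlap. Of all probesets, 0.965% had groups apart in this direction and 1.69% in the opposite one. The difference of 11759895_at, 0.60, came mostly from replicate 2, where it was 1.57, against 0.02 in replicate 1 and 0.22 in replicate 3. It did not pass among all probesets (adjusted p = 1.00 from limma with the block).

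**Figure D4:**
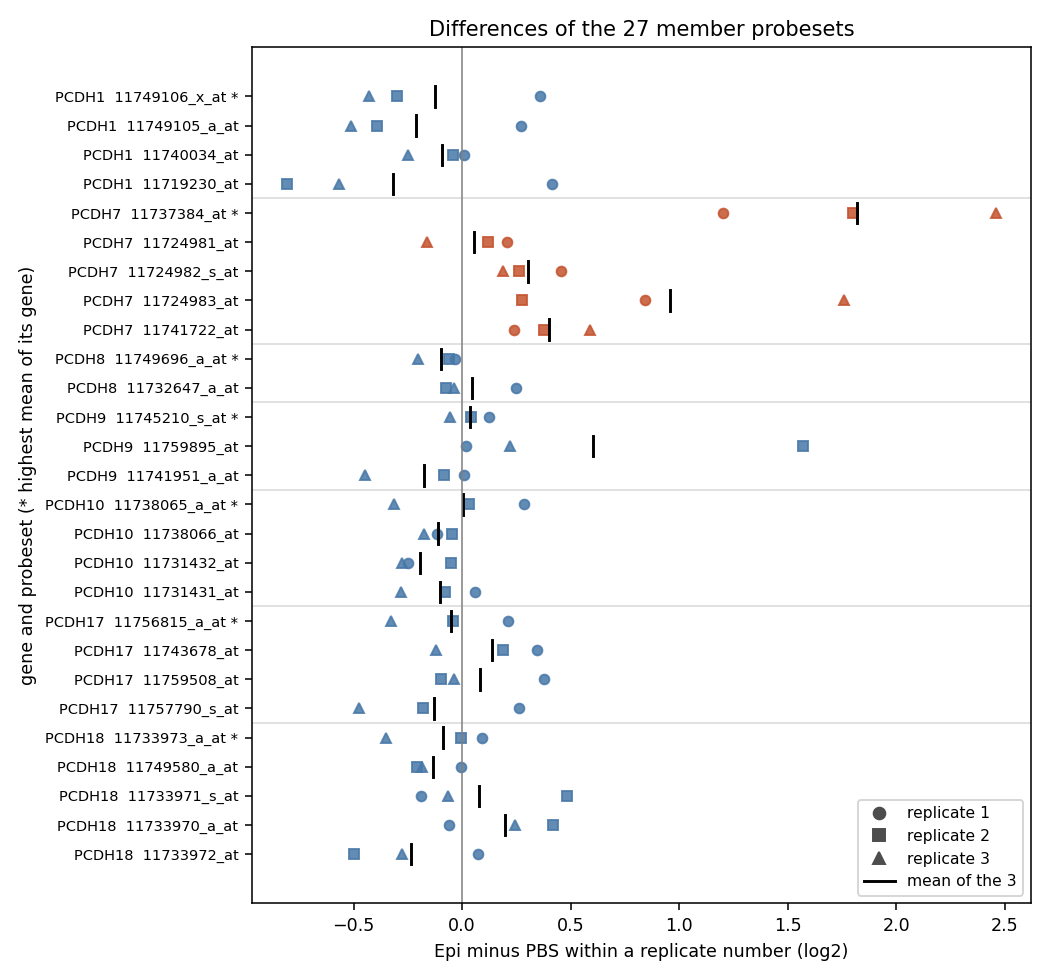
Epi minus PBS differences on the log2 scale within replicate numbers 1, 2 and 3 for the 27 probesets of the 7 genes, with a bar at their mean and an asterisk at the probeset used for its gene. The PCDH7 probeset 11737384_at lies at 1.20, 1.80 and 2.46, to the right of nearly all other points, and most probesets of the other genes lie on both sides of 0.

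Among the delta-2 members, PCDH10 recruits the actin-regulating WAVE complex through its tail. Its log2 value was 6.34, 7.06 and 7.10 in PBS and 6.63, 7.09 and 6.79 in Epi tumors, and the mean was 6.84 in both groups. The difference of 0.0025 had a 95% interval in limma of -0.65 to 0.66 without the block and -0.44 to 0.44 with it, and its sign turned in several alternatives. Its 3 other probesets had means of 4.21 at most, so the level of PCDH10 rests on a single probeset. PCDH1 and PCDH9 likewise had only 1 probeset at or above the dim level.

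PCDH18, which binds the adaptor Dab1 in mouse, read 6.33, 6.41 and 6.53 in PBS and 6.42, 6.41 and 6.18 in Epi tumors. The difference was -0.09 (95% interval in limma of -0.59 to 0.42 without the block and -0.52 to 0.34 with it). Its 4 other probesets had differences of -0.23 to 0.20.

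PCDH8 and PCDH17 were dim on all arrays. PCDH8, whose relatives in frog and rat guide cell movements and synapses, read 4.62, 5.08 and 5.04 in PBS and 4.59, 5.03 and 4.84 in Epi tumors. The difference of -0.10 had a 95% interval in limma of -0.67 to 0.47 without the block and -0.52 to 0.32 with it. PCDH17, which in mouse helps to organize synapses, read 4.91, 4.11 and 4.11 in PBS and 5.12, 4.07 and 3.78 in Epi tumors. The difference was -0.05 (95% interval in limma of -0.96 to 0.85 without the block and -0.49 to 0.38 with it).

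Every member had a probeset that differed more between the replicate 1 arrays and the rest than between treatments, while other probesets did not. The mean of the replicate 1 arrays minus that of the other 4 was 1.00 for the used PCDH17 probeset and 1.27 for 11743678_at, with 5.01 against 4.02 and 4.50 against 3.24, but 0.0018 for 11759508_at and 0.10 for 11757790_s_at, whose differences between treatments were 0.08 and -0.13. In PCDH18 the probesets 11749580_a_at and 11733972_at were higher in the replicate 1 arrays by 0.80 each, and 11733971_s_at and 11733970_a_at stood at -0.60 and -0.51, while the used PCDH18 probeset stood at -0.0046, nearer to 0 than its difference between treatments. In PCDH10 the probesets 11738065_a_at and 11738066_at stood at -0.52 and -0.87. The used PCDH8 and PCDH9 probesets stood at -0.39 and -0.17, against differences between treatments of -0.10 and 0.04. The used PCDH7 probeset stood at -0.66, smaller in size than its difference between treatments of 1.82. Its replicate 1 array read 4.04 against 4.24 and 4.24 in PBS, and 5.24 against 6.04 and 6.70 in Epi tumors. Over all genes the median of replicate 1 minus the other arrays was -0.28. Of the 5 PCDH18 probesets, the 4 not used were thus shifted in opposite directions in the replicate 1 arrays.

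Among the genes at or above the dim level, those whose differences lay nearest to those of PCDH7 came from other families. They were sought by the root mean square distance of the differences within the 3 replicate numbers. The dim level left PCDH8, PCDH17, all 5 other non-clustered protocadherins and all but 18 of the 53 clustered ones out of this search. The largest log2 difference over all arrays was 0.11 in the other non-clustered and 0.41 in the clustered protocadherins, against 1.82 for PCDH7. The nearest were DUSP1, a phosphatase of MAP kinases (distance 0.35), ABCG2, a drug efflux transporter (0.35), EFEMP1, a matrix glycoprotein (0.38), OLFML3, a secreted protein (0.49), and NEDD9, a scaffold of focal adhesion signaling (0.50). The log2 differences of these 5 genes over all arrays ran from 1.34 for NEDD9 to 1.66 for EFEMP1. By Pearson correlation of the values over the 6 arrays, the most alike were CTDSPL (r = 0.99), AJUBA (0.98), SLPI (0.98), ATOH8 (0.97) and HSBP1L1 (0.97), and the most opposed were SLC6A11 (-0.98) and CLMN (-0.97), then ELL, PF4V1 and FGF5 (each -0.95). With 6 arrays of 2 groups, such values follow largely from the shared difference between groups and are a description. AJUBA, a LIM protein of cell junctions, read 10.03, 10.08 and 10.05 in PBS and 10.31, 10.79 and 10.89 in Epi tumors.

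**Figure D5:**
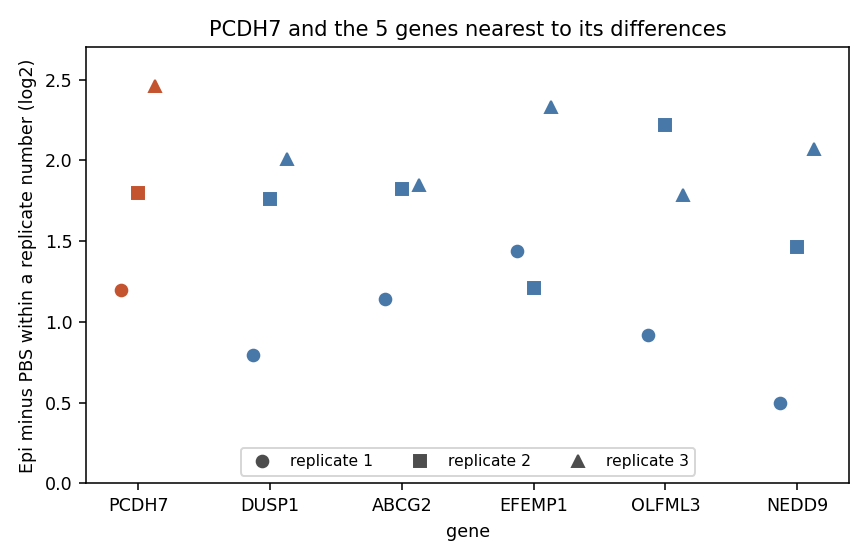
Epi minus PBS differences on the log2 scale within replicate numbers 1, 2 and 3 for PCDH7 and the 5 genes with the smallest root mean square distance to them. All points lie above 0, with PCDH7 at 1.20 to 2.46.

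Of the wider cadherin superfamily and the reported partners of delta protocadherins, 93 genes in 7 lists were measured. None passed in limma with or without the block, where 0.673% and 0% of all genes passed. Without the block 1 of the 93, SMAD3, had an unadjusted p under 0.05, against 1.33% of all genes. The other non-clustered protocadherins, 5 measured genes that were all dim, had a median log2 difference of -0.03, against -0.02 over all genes. The 53 clustered protocadherins, 18 of which were at or above the dim level, had a median of -0.0030 and a range of -0.29 to 0.41.

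The 10 classical and desmosomal cadherins had a median of -0.03. Each gene of the lists that is named with its value had an adjusted p of 1.00 from limma without the block. CDH11, a cadherin of mesenchymal cells, was at 8.36 ± 1.62 (SD, n = 3) in PBS and 7.49 ± 1.78 (SD, n = 3) in Epi tumors, with an adjusted p of 0.0699 from limma with the block. CDH3, the placental cadherin, was at 6.76 ± 0.50 and 7.51 ± 0.41 (SD, n = 3 each), with an adjusted p of 0.142 from limma with the block. The 6 catenins and plakophilins had a median of 0.0067. Their widest difference was that of JUP, the junctional plaque protein plakoglobin, at 0.88 with an adjusted p of 0.120 from limma with the block.

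Of the lists made for partners of protocadherin tails, the 8 genes under PP1, PP2A and SET, TAF1 among them, had a median of 0.09. SET stood at 12.17 ± 0.25 in PBS and 12.42 ± 0.30 in Epi tumors (SD, n = 3 each), a difference of 0.24. TAF1, a subunit of the transcription factor TFIID, stood on this list only because SET has also been called TAF1 as a PCDH7 partner. Its difference of 0.31, the widest on the list, is not that of a tail partner, but it counts in the median. The 7 measured genes of the WAVE complex had a median of -0.24, with 6 of the 7 below 0 and CYFIP2, a subunit, at -0.86 (adjusted p = 0.159 from limma with the block). GJA1, the gap junction protein connexin 43 that has been tied to PCDH7 in brain metastasis, was at 9.23 ± 0.50 in PBS and 9.98 ± 0.61 in Epi tumors (SD, n = 3 each), a difference of 0.76 with an adjusted p of 0.329 from limma with the block. SMAD3, a transducer of TGF-β that PCDH1 binds in airway cells, was at 10.77 ± 0.14 and 10.17 ± 0.09 (SD, n = 3 each), with all Epi arrays below the PBS arrays, as in 2.22% of all genes. Its difference was -0.59, with an adjusted p of 0.413 from limma with the block.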

How the data were processed

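The authors deposited log2 expression values of 49395 probesets for 6 Affymetrix Human PrimeView arrays. RMA and, as software, Affymetrix Expression Console are named in the submitters' processing notes, neither with a version. The 102 control probesets were left out. GEO's platform annotation gave 1 gene for 44988 probesets, several for 1832 and none for 2473, and only the first were used.

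Differences of Epi from PBS were fitted over all 18132 genes by limma 3.58.1 (R 4.3.3), with Benjamini-Hochberg adjustment at 0.05. For the arrays the paper names no test, only a cut-off on fold change and a Q under 0.05. Replicate numbers were taken from the labels, which do not say what they stand for, and deviations from the group means correlated at 0.630, 0.627 and 0.453 within numbers 1, 2 and 3, and also at 0.523 between PBS replicate 3 and Epi replicate 2. The number was a block in an alternative fit.

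The members and lists were chosen with earlier results of these data known. Named genes were all members, up to 4 genes per list with the widest difference at or above the 30th percentile of gene means, and genes most like or opposed to PCDH7. The fits were tested on simulated data. Arrays have no read depth, and precision is limited by their number. Promoter sequences are from RefSeq (GRCh38.p14), which listed 6 of the 7 members.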

Additional observations from a re-analysis of the deposited data

How the results depend on the processing

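The alternatives were the Student t-test that the paper names for 2 groups, the replicate block, a filter on dim genes, testing each probeset or the mean of those of a gene, quantile normalization or median centring, a robust variance trend, array weights, combinations of these and leaving out arrays. A block for the replicate 1 arrays alone and probesets chosen by PBS mean were added after the data were seen. The filter on dim genes leaves PCDH7, PCDH8 and PCDH17 out.

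The count of genes that passed was 0 in limma without a block (241 at an unadjusted p under 0.05 in limma, 252 in the t-test), and also without any 1 array. It was 122 (64 higher, 58 lower) under the replicate block, 56 with the block and quantile normalization (34 and 22), 55 with the block and median centring (25 and 30), 81 with the block and the mean of probesets, 155 with the block and the filter and 130 with the block and probesets by PBS mean. It was 40 with the block for the replicate 1 arrays, and, in 2 fits without a block, 16 without both replicate 1 arrays and 2352 with array weights, whose estimation did not converge. With the block and without 1 replicate number it was 162, 66 and 129 for numbers 1, 2 and 3.

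PCDH7 passed at 1.82 under the replicate block (limma adjusted p = 0.00143), at 1.80 with the block and quantile normalization (0.0300) and at 1.81 with the block and median centring (0.0311). It also passed at 1.82 with the block for the replicate 1 arrays and at 2.13 without both replicate 1 arrays. The pass at 1.87 with array weights came from weights that did not converge, 67.3 for PBS replicate 3 against 0.12 to 3.42 for the others. Little can be read from this last pass of PCDH7. Without 1 array the PCDH7 difference was 1.47 to 2.20 and did not pass, and with the block and without replicate number 1, 2 or 3 it passed at 2.13, 1.83 and 1.5. With the block and without number 2 or 3, all members had the same standard error, 0.32 and 0.31, so passing there does not reflect the spread of PCDH7. The PCDH7 difference was 0.71 with the mean of probesets and 0.06 with the probeset by PBS mean, and passed in neither with or without the block.

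The other members passed in no alternative, and their signs turned as follows. PCDH10 was at -0.069 with array weights, -0.016 with quantile normalization and -0.0088 with median centring, the same with the block, -0.10 with the mean of probesets, with and without the block, and -0.14 without both replicate 1 arrays. PCDH17 was at 0.0082 with the mean of probesets, with and without the block, and PCDH9 at -0.0058 without both replicate 1 arrays. With the block, PCDH10 was at -0.14 and PCDH9 at -0.0058 without replicate number 1, PCDH10 at -0.013 without number 2, and PCDH1 at 0.030, PCDH17 at 0.085 and PCDH18 at 0.043 without number 3. Without 1 array the differences ran from -0.27 to 0.024 for PCDH1, -0.24 to 0.016 for PCDH8, -0.040 to 0.076 for PCDH9, -0.24 to 0.14 for PCDH10 and -0.45 to 0.22 for PCDH17. The cause was not tested. With dim probesets, signal over background limits PCDH7, PCDH8 and PCDH17.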
